A study of Solanum tuberosum and Solanum acaule with 12 samples.

Results

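In the wild potato Solanum acaule, 1439 of the 10211 loci measured on both chromosome sets, or 14.1%, gave at least 2 times as much signal from set 2 as from set 1. A locus here is a group of assembled transcripts with one assembly number, and its set copies are the transcripts that a deposited placement table puts on chromosomes ending in 1 or in 2. Members were chosen by measured values: in each of 5 libraries (the 3 freezing libraries and control replicates 1 and 2) the summed signal of the set 2 copy had to be at least 2 times that of the set 1 copy. Both copies also had to reach a signal of 1 in at least 3 of the 6 S. acaule libraries. The deposited table held 70880 loci in all, and 16321 of them had transcripts placed on both sets. The reverse rule, set 1 over set 2, found 1183 loci.

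S. acaule is an allotetraploid, a species whose nucleus holds chromosome sets from different ancestors. A gene then usually exists as a pair of copies, called homoeologs, one in each ancestral set. The copies can be transcribed unequally, which is known as homoeolog expression bias, and the bias can differ between tissues, conditions and genes. It is studied in polyploid crops because a mutation or a breeding allele in the more active copy can weigh more on the plant than one in the quieter copy.

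Stranded mRNA libraries were made from total RNA of shoots and sequenced. The freezing group held 3 libraries of shoot explants from a chamber whose temperature was lowered by 2 °C each hour, starting at 22 °C and ending at -4 °C. The control group held 3 libraries from long-day conditions. The labels name no transgene, mutant or clone, and the design text calls the replicates biological without saying whether each came from its own plants. P-values therefore reflect only how far these libraries differ, which may be technical. Whether set 1 and set 2 correspond to the ancestral genomes is not given in the sources used here. No locus or gene model identifier (0) had a counterpart in the name table supplied as reference, and the files pair none with a name. Loci are therefore given by identifier with no function, and markers of the shoot could not be checked.

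Signal is the deposited abundance per assembled transcript, scaled between libraries by the authors; it has the form of length-adjusted values, which no source used here states. Library totals ran from 912356 to 1052633, and depth is unknown, because values of this kind do not keep it. How reads shared by near-identical copies were assigned is not given in the sources used here, which limits every ratio between copies. Control replicate 3 stood apart: set 2 held 65.6% of the signal placed on 1 set only in that library, against 52.6% to 53.4% in the other 5. It took no part in the 2-fold rule but did count in the filter on low values; without it 49 of the 1439 members and 258 of the 10211 loci would not have passed. Results that change with it are given with and without it.

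The 5 libraries that chose the members gave similar ratios of set 2 over set 1. The median ratio over the 1439 loci was 4.70, 4.49 and 4.28 in freezing replicates 1 to 3, and 4.53 and 4.40 in control replicates 1 and 2. Over all 10211 loci the median ratio was between 1.049 and 1.067 in the same libraries. These values describe the choice and are no test of it. The lowest of the 5 ratios was under 3 for 639 members, at 4 or more for 509 and at 10 or more for 137. Set 1 was listed at 0 in at least 1 of the 5 libraries for 19 members, and no fold is given for those libraries.

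**Figure D1:**
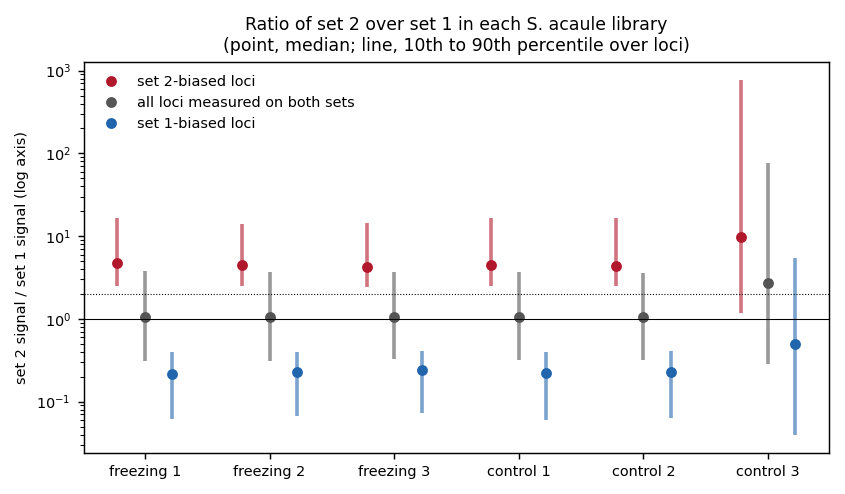
Ratio of set 2 signal over set 1 signal (log axis) in each S. acaule library for the 1439 set 2-biased loci, all 10211 loci measured on both sets and the 1183 set 1-biased loci; points are medians and lines run from the 10th to the 90th percentile over loci. The dotted line marks the 2-fold threshold; in control replicate 3 all 3 medians lie higher than in the other libraries and the lines are longer.

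The set 2 copies had a median signal of 19.3 to 21.1 over the 5 libraries, against 8.54 to 9.13 for the set 2 copies of all 10211 loci. The set 1 copies had a median signal of 3.38 to 4.09, against 8.03 to 8.52 for the set 1 copies of all loci. Choosing loci by a 2-fold ratio in these libraries raises the first median and lowers the second by construction, so both are a description of the choice. With both copies added, the median of the 6-library mean was 25.8 for members, 24.8 for set 1-biased loci and 19.8 for all loci measured, and 25.7, 24.9 and 19.7 without control replicate 3. Averaged over the 6 libraries the set 2 copy reached 100 or more at 129 members, lay between 10 and 100 at 1049 and was under 10 at 261; without control replicate 3 these counts were 126, 1035 and 278.

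The share of loci that were members differed with level. With the measured loci split into 5 equal groups by the summed signal of both copies, 5.58% of the lowest group were members. The share was 13.6%, 16.1% and 17.4% in the next groups and 17.9% in the highest, and 5.29% in the lowest and 17.8% in the highest without control replicate 3. The filter asks each copy to reach a signal of 1, so a low locus had less room for a 2-fold difference; how much of the gradient this accounts for was not tested. Set 1-biased loci made up 5.82% of the lowest and 13.9% of the highest group. In all, the members' 2 copies held 6.75% to 9.08% of the total signal of the 5 libraries and 9.57% of that of control replicate 3.

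The most abundant set 2 copies had ratios from shallow to steep. Locus AcauleEVm003695, on chromosome 9 of both sets (set 2 at 2303112 to 2306913, set 1 at 2299522 to 2303398), had a set 2 signal of 1561, 2275 and 2075 in the freezing libraries and 1740.4, 2148 and 1822 in the control libraries. Its set 1 copy had 532, 662 and 568 after freezing and 526, 565 and 837 in control. Its 6 ratios stayed between 2.18 and 3.804, with the groups overlapping for both copies. AcauleEVm009604, with 22 transcripts on set 2 and 8 on set 1 spread over several chromosomes, had ratios of 2.29, 2.65 and 2.90 after freezing and 2.15, 2.43 and 4.44 in control.

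The second and the third most abundant members had steep ratios. AcauleEVm019118, on chromosome 3 at 44909424 to 44910735 of set 2, had a set 2 signal of 1875, 2245 and 3078 after freezing, against 988, 1233 and 127 in control. The last value, that of control replicate 3, was far below the other 5. The set 1 copy had 9.47, 29.9 and 66.4 after freezing and 8.42, 23.8 and 17.1 in control, and the ratio over the 5 choosing libraries ran from 46.4 to 198. At AcauleEVm035498, on chromosome 9, the same library was extreme in the other direction: set 1 stood at 1.06 there, against 21.7 to 33.6 in the other 5 libraries, while set 2 stood at 2417. Its ratio over the 5 choosing libraries ran from 38.3 to 70.2. AcauleEVm027404, on chromosome 7 at 51329884 to 51331233 of set 2, had a ratio of 91.0 in control replicate 3 and of 3.45 to 4.05 elsewhere. AcauleEVm047618, also on chromosome 7, had ratios of 6.98, 7.81 and 7.56 after freezing, against 9.72, 10.97 and 4.66 in control.

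The steepest members had a set 1 copy near the bottom of the scale. AcauleEVm010968, with a mean set 2 signal of 605 over the 6 libraries, on chromosome 7 at 49501798 to 49506370 of set 2, had a set 2 signal of 667, 878 and 1006 in the freezing libraries and 386, 393 and 303 in the control libraries. Its set 1 copy had 2.70, 1.04 and 2.30 after freezing and 0.409, 0.821 and 0.510 in control. All 3 freezing values of each copy were above all 3 control values, but the difference of the locus sum on the log2 scale, 1.20 (SE 0.29), was not called (limma adjusted p = 0.122). The set 1 copy reached a signal of 1 in the freezing libraries only. AcauleEVm010968 was therefore a member through the group where it was high, which makes the difference partly a product of the choice. AcauleEVm015151, on chromosome 3 at 45462238 to 45464948 of set 2, had 349, 271 and 237 from set 2 after freezing and 329.7, 318 and 386 in control. Its set 1 copy, 1.97, 1.36 and 0.326 after freezing and 1.21, 1.29 and 0.467 in control, stayed under 2 in all 6 libraries.

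The lowest ratio over the 5 choosing libraries was 81.1 for AcauleEVm021433 on chromosome 6, 79.3 for AcauleEVm017368 on chromosome 5 and 72.1 for AcauleEVm019829 on chromosome 6. It was 73.5 for AcauleEVm018639, whose set 2 transcripts lie on chromosome 9 and whose set 1 transcripts lie on chromosome 6. At these 4 loci the set 1 copy stayed under 3 in the freezing libraries and far under set 2 in every library, so the size of the ratio rests on small set 1 values. In control replicate 3, AcauleEVm019829 had 26.3 from set 1, against 1.19, 2.22 and 0.822 after freezing and 5.28 and 7.60 in the other controls.

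At the threshold itself members and other loci could not be told apart. Among loci with a mean signal of at least 5 on each set, the members just inside, AcauleEVm009857 and AcauleEVm009853, had a lowest ratio of 2.002 and 2.003. The loci just outside, AcauleEVm009317 and AcauleEVm016008, had 1.998 and 1.996. A further 238 loci kept a ratio of 1.8 or more in all 5 libraries without being members, and 374 passed the 2-fold level in 4 of the 5. The SD of the log2 ratio over these libraries had a median of 0.37 among members, against 0.31 among all measured loci.

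Members carried more assembled transcripts on set 2 than on set 1. Their median was 6 transcripts on set 2 and 2 on set 1, against 4 and 3 over all measured loci. Set 2 had the larger number at 1177 members (81.8%), the same number at 142 and the smaller number at 120, whereas it had the larger number at 48.8% of all measured loci. The share of members rose with the surplus of set 2 transcripts, through 1.26% of loci with at least 4 fewer on set 2, 9.71% with equal numbers and 44.8% with at least 7 more. Set 1-biased loci followed the mirror image, at 37.0%, 8.54% and 0.759% of the same bins. A copy's signal is a sum over its transcripts, so the number of transcripts and the bias share their source and are not independent measures.

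**Figure D2:**
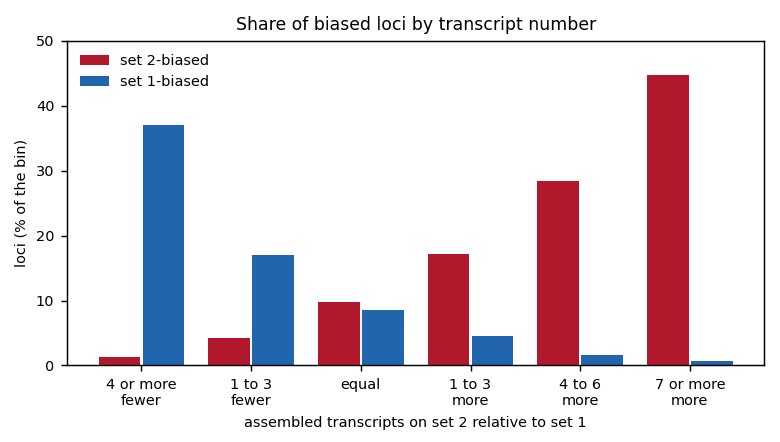
Share of loci (% of the loci in each bin) that were biased to set 2 (red) or to set 1 (blue), by how many more or fewer assembled transcripts the locus had on set 2 than on set 1. The set 2-biased share runs from 1.26% at the left to 44.8% at the right and the set 1-biased share from 37.0% to 0.759%.

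Comparing single transcripts in place of sums narrowed the set. The highest transcript of set 2 was above the highest transcript of set 1 in all 5 libraries at 1274 members (88.5%), and at least 2 times as high at 813 (56.5%). The order was the reverse in all 5 libraries at 11 members. The mean signal per transcript was higher on set 2 in all 5 libraries at 994 members (69.1%) and lower in all 5 at 145. The same libraries and transcripts chose the members, so these counts describe the choice and are no test of it. They were not taken over all measured loci. Within the set 2 copy, the highest transcript held a median of 52.5% of the signal, against 66.7% over all measured loci and 83.6% for the set 2 copies of set 1-biased loci.

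Loci with a single transcript on each set leave no room for a difference in transcript number. There were 363 of these among the measured loci, of which 47 (12.9%) were members and 42 (11.6%) were biased to set 1. The lowest ratio of these 47 members over the 5 libraries ran from 2.02 to 14.6, with a median of 3.49. The steepest of the 47, named after their values were seen, was AcauleEVm045248 on chromosome 2 (set 2 at 43764755 to 43766810, set 1 at 40087827 to 40088974), whose set 2 transcript had 56.8, 57.6 and 48.6 after freezing and 66.1, 62.2 and 41.4 in control. Its set 1 transcript had 3.88, 2.31 and 2.30 after freezing and 4.17, 3.04 and 2.57 in control. No library came near equal copies, control replicate 3 included. The next steepest, AcauleEVm032817 on chromosome 8, had ratios of 17.7, 10.7 and 9.59 after freezing and 11.4 and 12.4 in control replicates 1 and 2, but in control replicate 3 set 1 stood at 21.8 and set 2 at 0.743. AcauleEVm008672, on chromosome 11 (set 2 at 11417537 to 11429489), had ratios of 9.25, 22.2 and 19.7 after freezing and 13.2, 20.3 and 22.2 in control.

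The set 2 transcripts of members also covered more of the genome than the set 1 transcripts, while placement scores were alike. Transcripts with the highest deposited placement score of 40 made up 46.8% of the members' set 2 transcripts and 47.9% of their set 1 transcripts; the meaning of the score is not stated. Both copies shared a chromosome number at 1424 of the 1439 members (99.0%), against 99.4% of all measured loci, and lay on 1 and the same number at 1259 (87.5%), against 90.6%. The genomic stretch covered by the transcripts had a median of 6104 bases on set 2 and 4478 on set 1 among members, against 4896 and 4675 over all measured loci. The set 2 cover was the longer at 72.4% of members and 53.2% of all measured loci. More than 1 separate region was covered on set 2 at 228 members (15.8%) and on set 1 at 172 (11.95%), against 11.6% and 10.6% of all measured loci. A set 2 sum can then add up several genes; 1135 members (78.9%) covered a single region on each set, against 83.5% of all measured loci.

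Members lay on all 12 chromosomes. Of the 9518 loci whose set 2 transcripts were placed on a single chromosome, 1290 (13.6%) were members, and the share ran from 11.4% on chromosome 5 to 14.8% on chromosome 8. Chromosome 1 held the most members, 176 of 1267 loci. Next to a member along set 2, another member stood in 26.0% of cases, while 25.2% of the other loci had a member beside them. Runs of 3 consecutive members were found in 22 places and none was longer. The first of these lay on chromosome 1 at 7612249 to 7877792 and held AcauleEVm022187, AcauleEVm022715 and AcauleEVm011554. AcauleEVm022187 had ratios of 2.77, 2.11 and 2.39 after freezing, against 4.43, 5.42 and 0.411 in control, with set 1 the higher copy in control replicate 3. AcauleEVm022715 had 10.03, 9.07 and 9.11 after freezing, against 13.1, 11.6 and 53.7 in control, and its set 1 copy reached a signal of 1 in the freezing libraries only. AcauleEVm011554 had 22.5, 4.68 and 2.22 after freezing, against 8.80, 19.5 and 2.00 in control. No test was made of these shares.

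**Figure D3:**
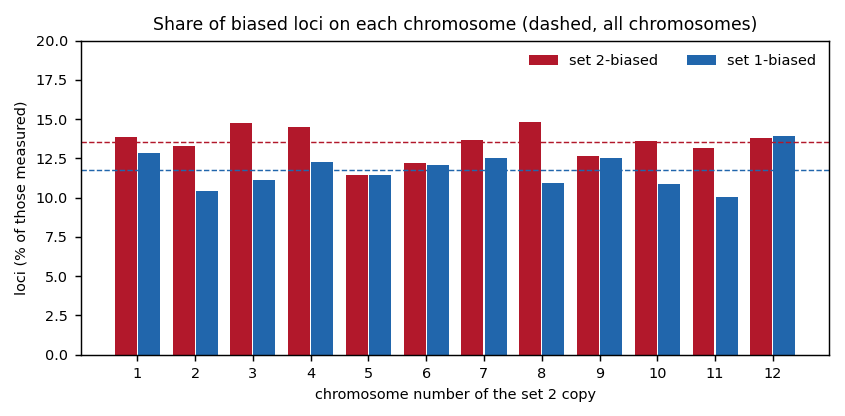
Share of measured loci on each chromosome number (by the set 2 copy) that were biased to set 2 (red) or set 1 (blue); dashed lines give the shares over all chromosomes. The set 2-biased share stays between 11.4% and 14.8%.

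Control replicate 3 took no part in the 2-fold rule, though it counted in the filter on low values. In this library 1202 members (83.5%) again had at least 2 times as much signal from set 2, but so did 56.8% of all 10211 loci, against 21.3% to 22.9% in the other libraries. Among loci that passed the filter without it, the shares were 84.2% of 1390 members and 57.0% of all. Its median ratio was 9.81 over members and 2.70 over all measured loci. Set against that library's own median, 63.1% of members were at least 2-fold above it, against 35.7% of all measured loci. The set 1 copy was listed at 0 for 121 members (8.41%) there, against 2 to 8 members in each of the other 5 libraries. Over all measured loci it was listed at 0 for 464 (4.54%) there, against 8 to 12 in each of the others. The set 1 copy lay below all 5 other libraries at 746 members (51.8%). This count was not taken over all measured loci, whose median set 1 signal was 3.95 there, against 8.03 to 8.52 in the other 5 libraries.

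The split of the signal summed over all members was no different in this library. Set 2 held 84.1% of the members' signal in control replicate 3, against 83.5% to 84.1% in the other 5. Over all measured loci the same share was 64.8%, against 49.6% to 50.7%, and over set 1-biased loci it was 38.95%, against 15.2% to 16.1%. A sum is led by the most abundant loci, and the median ratio of members was higher there, so these values describe different parts of the set. Set 2 also did not go one way: it was above all 5 other libraries at 455 members and below all 5 at 414. Neither count was taken over all measured loci.

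In control replicate 3, 110 members (7.64%) had less signal from set 2 than from set 1, and at 54 the order was the reverse by at least 2-fold. Over all 10211 measured loci, set 1 was at least 2-fold above set 2 at 1639 in that library. The first count was not taken over all loci. The members with the lowest ratio there were AcauleEVm016316 on chromosome 10, AcauleEVm024066 on chromosome 9 and AcauleEVm022190 on chromosome 7. AcauleEVm016316 had a set 2 signal of 104, 81.9 and 87.2 after freezing and 68.4 and 54.2 in control replicates 1 and 2, but was listed at 0 in control replicate 3, with set 1 at 1.82. AcauleEVm022190 had a set 2 signal of 34.7, 29.7 and 25.8 after freezing and 35.9, 32.9 and 0.308 in control. Its set 1 copy had 2.33, 3.25 and 2.58 after freezing and 1.33, 2.56 and 30.0 in control, so the copies changed places in that 1 library.

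The freezing comparison asked whether members differ in level between cooled shoots and controls, for which the sum over all transcripts of a locus, placed or not, was used. Few members were called: 7 were higher and 3 lower after freezing than in control, 10 of 1439 or 0.695% (limma, Benjamini-Hochberg adjusted p under 0.05 over all 29331 loci tested). Of all loci tested 0.556% were called, 0.283% higher and 0.273% lower, so the members' share was near the background. Limma gave 226 members (15.7%) an unadjusted p under 0.05, against 16.0% of all loci tested. A member without a call is not shown to be unchanged. All 1439 members passed the filter on low values of this test, as the rule for members requires. The median log2 fold change was 0.08 over members and 0.04 over all loci tested, and 58.1% of members and 53.1% of all loci were above 0. Without control replicate 3, 23 members were higher and 13 lower (36, or 2.502%), against 2.38% of all loci (1.08% higher and 1.3% lower), and all 10 loci kept their call, with log2 fold changes within 0.17 of those with all libraries. In bulk tissue, fewer cells of a type and less RNA per cell cannot be told apart.

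The largest increase was at AcauleEVm021109, on chromosome 7 at 5798031 to 5812025 of set 2 and 5573413 to 5574259 of set 1. Its locus signal was 18.2, 15.4 and 16.9 in the freezing libraries, against 1.19, 0.452 and 1.49 in the control libraries. The log2 fold change was 3.16 (SE 0.30, limma adjusted p = 0.0193; 0.0121 to 0.146 over the alternatives). Set 2 had 12.3, 12.5 and 13.9 after freezing and 0.629, 0.452 and 1.49 in control. That it carried most of the increase follows largely from the rule, which asks for 2 times the set 1 signal. The set 2 copy was itself called (log2 fold change 2.94, limma adjusted p = 0.0430, and 0.00440 to 0.337 over the alternatives). Set 1 had 2.98, 1.14 and 1.42 after freezing, against 0.280, 0 and 0 in control. This set 1 copy reached a signal of 1 in the freezing libraries only. The locus was therefore a member through the group where it was high, which makes its increase partly a product of the choice.

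AcauleEVm019011, on chromosome 11 at 11448265 to 11449564 of set 2, had 27.0, 19.1 and 52.4 after freezing, against 2.17, 4.22 and 2.03 in control (log2 fold change 3.08, SE 0.42, limma adjusted p = 0.0438; 0.0360 to 0.181 over the alternatives). Both copies stood higher in each freezing library than in any control library. AcauleEVm009545, on chromosome 3 at 48833664 to 48837371 of set 2, had 26.1, 24.7 and 29.3 after freezing and 3.97, 3.19 and 2.40 in control, and differed on the log2 scale by 2.74 (SE 0.23, limma adjusted p = 0.0152; 0.00950 to 0.144 over the alternatives). It had 4 transcripts on each set, and its set 2 copy was called as well (log2 fold change 2.78, limma adjusted p = 0.0472; 0.00705 to 0.337 over the alternatives). The 3 freezing values of this locus lay close together and far above the controls. Its set 1 copy had 2.14, 1.245 and 2.43 after freezing, against 0.296, 0.138 and 0.659 in control. That copy, too, reached a signal of 1 in the freezing libraries only, so this increase is also partly a product of the choice.

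The other increases were smaller, between 1.56 and 1.89 on the log2 scale. AcauleEVm015899 on chromosome 7 had 22.9, 36.2 and 27.0 after freezing and 7.87, 7.86 and 5.27 in control (log2 fold change 1.89, SE 0.26, limma adjusted p = 0.0441; 0.0345 to 0.240 over the alternatives). AcauleEVm034521, on chromosome 7 at 48703155 to 48705905 of set 2, had 229, 279.6 and 215 after freezing and 54.0, 81.5 and 64.8 in control (log2 fold change 1.85, SE 0.22, limma adjusted p = 0.0341; 0.0292 to 0.184 over the alternatives). Its ratio of set 2 over set 1 was 10.9, 11.02 and 9.31 after freezing, against 5.52, 7.46 and 2.55 in control, a difference that was not called (limma adjusted p = 0.721). AcauleEVm014222, also on chromosome 7, had 273, 228 and 291 after freezing and 85.3, 67.9 and 70.7 in control (log2 fold change 1.81, SE 0.20, limma adjusted p = 0.0252; 0.0210 to 0.160 over the alternatives). AcauleEVm014801, with copies on chromosomes 3 and 7 and named after its values were seen, had 229, 306 and 262 after freezing and 82.7, 107 and 78.7 in control (log2 fold change 1.56, SE 0.22, limma adjusted p = 0.0448; 0.0382 to 0.240 over the alternatives). Groups did not overlap at any of these loci.

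The largest decrease was at AcauleEVm014711, on chromosome 11 at 43925098 to 43930467 of set 2 and 37929132 to 37934836 of set 1. Its locus signal was 3.35, 3.15 and 2.80 in the freezing libraries, against 58.0, 54.1 and 42.8 in the control libraries, and differed on the log2 scale by -3.67 (SE 0.20, limma adjusted p = 0.00383; 0.00213 to 0.0684 over the alternatives). In control replicate 3 the copies stood the other way round, with 15.9 from set 2 and 26.9 from set 1, so the locus was low after freezing whichever copy led in control. Its set 1 copy had 0.385, 0.163 and 0.313 after freezing and reached a signal of 1 in the control libraries only. It needed control replicate 3 to pass the filter. The locus was therefore a member through the group where it was high, which makes its decrease partly a product of the choice. AcauleEVm013177, on chromosome 11 at 4979104 to 4982551 of set 2, had 19.3, 13.8 and 18.4 after freezing and 58.6, 45.4 and 52.1 in control (log2 fold change -1.55, SE 0.20, limma adjusted p = 0.0407; 0.0352 to 0.198 over the alternatives). AcauleEVm020314, on chromosome 6 at 49875680 to 49879187 of set 2, had 54.2, 45.1 and 46.4 after freezing and 113, 135 and 124 in control (log2 fold change -1.34, SE 0.17, limma adjusted p = 0.0374; 0.0328 to 0.238 over the alternatives). Both of its copies were lower in every freezing library than in any control library.

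**Figure D4:**
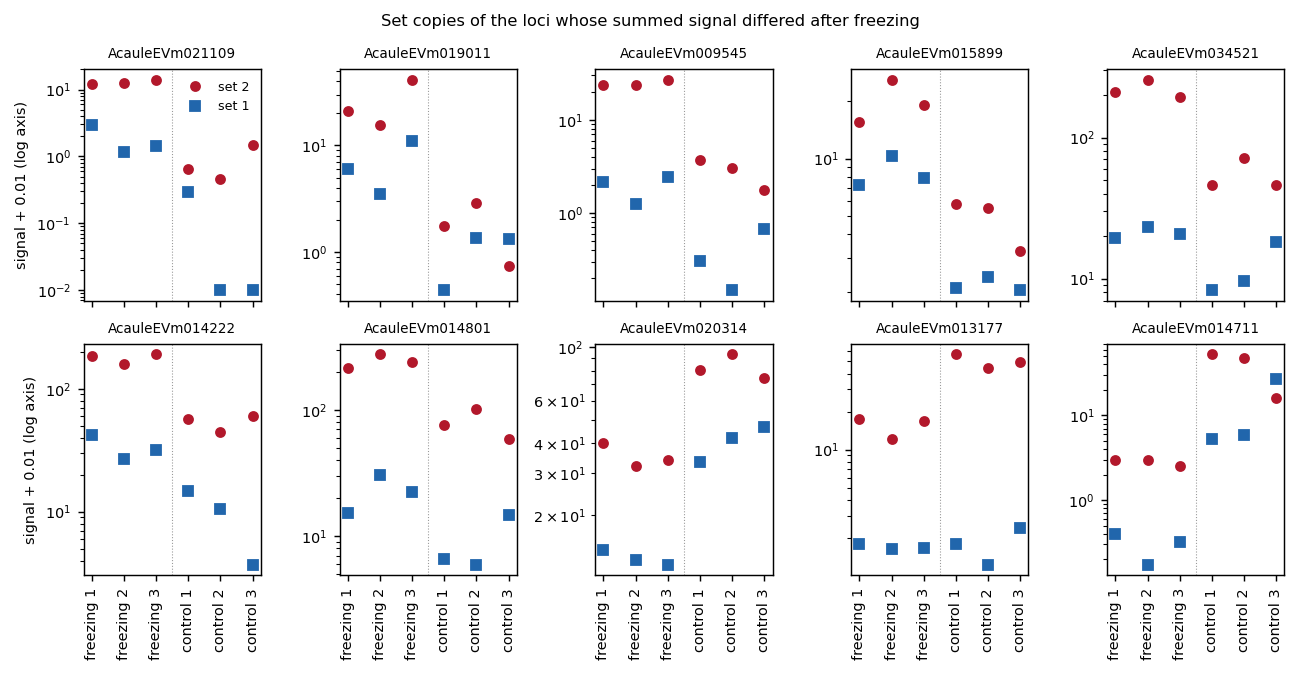
Signal of the set 2 copy (red circles) and the set 1 copy (blue squares) in each library (log axis, 0.01 added, each panel on its own scale) for the 10 members called after freezing, from the largest increase to the largest decrease. The freezing libraries stand left of the dotted line; the summed signal of the groups overlapped at none of the 10 loci, and in control replicate 3 set 1 lay above set 2 at AcauleEVm019011 and AcauleEVm014711.

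These calls rest on few libraries. Each of the 10 was lost with a block for the replicate number, and each was lost without freezing replicate 2 and without control replicate 2 (0 calls among members in each case; limma, with 278, 135 and 159 members at an unadjusted p under 0.05, against 226 with all libraries and no block). AcauleEVm014711 was the 1 member called without freezing replicate 1 or without freezing replicate 3, and it and AcauleEVm009545 were the 2 called without control replicate 1.

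Taken copy by copy, the set 2 copies of 2 members were higher after freezing (limma, adjusted over both copies of all measured loci), AcauleEVm021109 and AcauleEVm009545, and none was lower, at a background of 0.108% of set 2 copies (0.0294% higher and 0.0783% lower). The set 1 copy of 1 member was higher, AcauleEVm021085, at a background of 0.108% of set 1 copies (0.0588% higher and 0.049% lower). At each of these named loci the set 1 copy reached a signal of 1 in the freezing libraries only, so each was a member through the group where it was high. At an unadjusted p under 0.05 (limma) were 153 set 2 copies of members (10.6%, against 11.6% of the set 2 copies of all measured loci). For set 1 it was 172 copies of members (11.95%, against 10.9% of the set 1 copies of all measured loci), so both shares were near the background. Over members the median log2 fold change was 0.06 for set 2 copies and 0.25 for set 1 copies, and over all measured loci it was -0.06 and 0.26. Without control replicate 3 the medians were 0.07 and 0.08 among members and 0.01 for both sets over all loci. In that fit 13 set 2 copies of members were higher and 3 lower, at a background of 1.03% (0.597% higher and 0.431% lower). In the same fit 12 set 1 copies were higher and 3 lower, at a background of 1.03% (0.607% higher and 0.421% lower).

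Whether freezing shifted the balance between copies was tested on the log2 ratio of set 2 over set 1 with 1 added to each. Limma called 0 of the 1439 members and 0% of all 10211 loci, with 63 members (4.38%) and 306 loci (2.997%) at an unadjusted p under 0.05. The lowest adjusted p among members was 0.721. Without control replicate 3, 2 members were called, both with a lower ratio after freezing, at a background of 0.0196%, and 190 members (13.2%) and 1372 loci (13.4%) were at an unadjusted p under 0.05. Over the 1420 members with a ratio in all 5 of these libraries, the mean log2 ratio after freezing differed from that in control replicates 1 and 2 by a median of 0.25 in size, and by 1 or more at 108 (7.61%). These values were not taken over all measured loci, so whether members differ from the background here is not known. The rule asked for a ratio of 2 or more in both conditions, so a shift that ended the bias could not be found among members.

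The first of the 2 members was AcauleEVm021085, on chromosome 3 at 2971874 to 2975913 of set 2 and 2978134 to 2979827 of set 1. Its set 1 copy had 11.1, 17.4 and 10.5 in the freezing libraries, against 0.0640, 0 and 0.0340 in the control libraries (log2 fold change 3.73, SE 0.28, limma adjusted p = 0.0203; 0.00761 to 0.276 over the alternatives). Its set 2 copy had 117, 181 and 108 after freezing, against 40.5, 48.0 and 61.3 in control, a log2 fold change of 1.40 that was not called (limma adjusted p = 0.172). The ratio of set 2 over set 1 was therefore 10.5, 10.4 and 10.3 after freezing, while set 1 was at or near 0 in all 3 controls. The difference in log2 ratio was -2.33 with all libraries (limma adjusted p = 0.721) and -2.17 without control replicate 3 (limma adjusted p = 0.0326), with adjusted p of 0.0326 to 0.893 over the alternatives. With 0.1 added in place of 1 it was -5.20 (limma adjusted p = 0.128), so its size depends on the value added. This set 1 copy reached a signal of 1 in the freezing libraries only and so passed the filter through the group where it was high, which makes its difference partly a product of the choice.

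The other was AcauleEVm016959, on chromosome 2 at 31549613 to 31550262 of set 2, where the set 2 values of the groups did not overlap. The set 2 copy had 104, 146 and 74.5 after freezing, against 355, 993 and 434 in control, and the set 1 copy had 1.57, 1.78 and 0.775 after freezing and 0.700, 2.71 and 5.64 in control. The difference in log2 ratio was -1.77 with all libraries (limma adjusted p = 0.721) and -2.39 without control replicate 3 (limma adjusted p = 0.0326; 0.0326 to 0.893 over the alternatives). AcauleEVm016959 was singled out after its values were seen in the fit without that library. AcauleEVm021085 was also among the members with the smallest unadjusted p for the ratio with all libraries.

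At AcauleEVm013177 and AcauleEVm007215, also among the members with the smallest unadjusted p for the ratio, neither copy was called by itself. At AcauleEVm013177, one of the called decreases, set 2 had 17.5, 12.1 and 16.8 after freezing, against 56.8, 44.2 and 49.8 in control, while set 1 had 1.77, 1.63 and 1.64 after freezing and 1.78, 1.22 and 2.38 in control. The set 1 values of the groups overlapped, and the set 2 copy had a limma adjusted p of 0.101 (0.0482 to 0.534 over the alternatives). At AcauleEVm007215, on chromosome 3 at 52228436 to 52233168 of set 2, set 1 had 2.27, 3.19 and 2.58 after freezing and 0.789, 0.541 and 0.191 in control (limma adjusted p = 0.158; 0.0779 to 0.565 over the alternatives). That copy, too, passed the filter through the freezing libraries only, as did the set 1 copies of 29 members in all, while 10 passed through the control libraries only. Its set 2 copy had 6.26, 6.43 and 5.77 after freezing and 7.63, 6.88 and 5.74 in control, and those groups overlapped. Its ratio was 2.76, 2.02 and 2.23 after freezing, against 9.67, 12.7 and 30.0 in control.

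The members with the smallest unadjusted p for a higher ratio after freezing were AcauleEVm000724, AcauleEVm009545 and AcauleEVm000407. At AcauleEVm000724, with 36 transcripts on set 2 and 9 on set 1 of chromosome 9, the ratio was 28.4, 21.0 and 18.8 after freezing, against 6.503, 7.67 and 2.27 in control. At AcauleEVm000407, also on chromosome 9, it was 15.0, 7.85 and 7.28 after freezing, against 5.94, 3.84 and 3.08 in control. The ratio covers only part of this locus, since much of its signal lay in transcripts outside both copies. Its locus sum was 19.9, 32.3 and 37.7 after freezing, with 9.08, 12.9 and 17.3 from set 2. In control the sum was 11.4, 10.7 and 21.5, with 2.84, 2.37 and 5.33 from set 2. Its set 1 copy needed control replicate 3 to pass the filter. At AcauleEVm009545 the difference rests on the 1 added to each copy, since its ratio without it was 11.2, 18.8 and 11.1 after freezing, against 12.4, 22.1 and 2.64 in control, and the groups overlapped. None of the ratios of these members passed with all libraries (limma adjusted p = 0.721 for each).

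**Figure D5:**
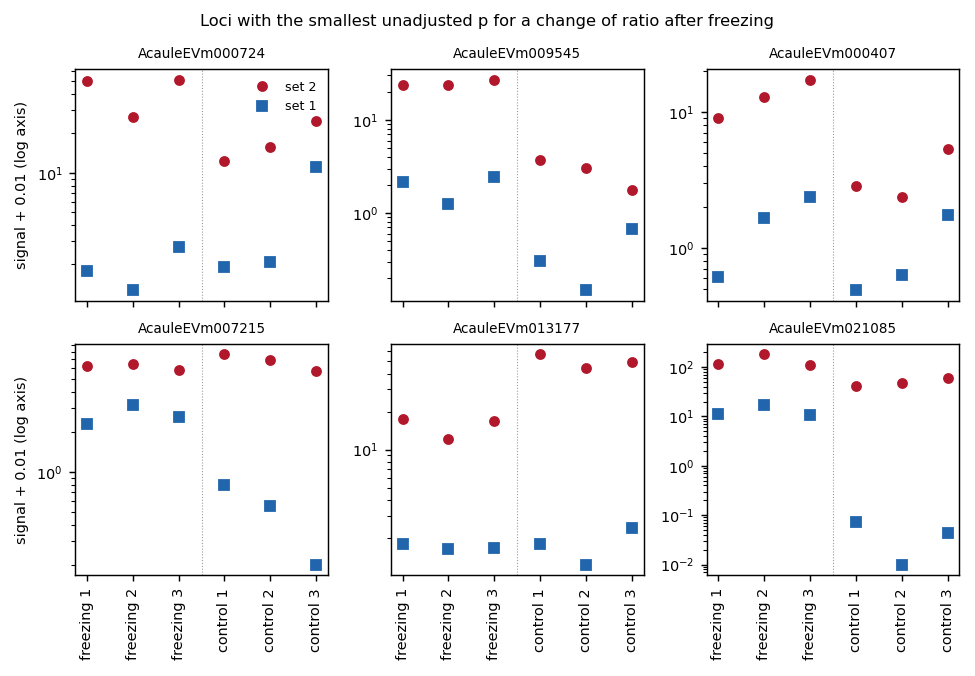
Signal of the set 2 copy (red circles) and the set 1 copy (blue squares) in each library (log axis, 0.01 added, each panel on its own scale) for the 3 members per direction with the smallest unadjusted p for a change of the log2 ratio after freezing, none called with all libraries. The freezing libraries stand left of the dotted line; at AcauleEVm000724 and AcauleEVm000407 they have the wider gap between copies and in the lower row the narrower gap, while at AcauleEVm009545 the gaps of the groups overlap.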

How the data were processed

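Total RNA from shoots of S. acaule was sequenced as stranded mRNA, in 3 freezing and 3 control libraries. The deposited signal is an abundance per assembled transcript that the authors scaled between libraries, and the deposited placement score runs from 1 to 40 with no stated meaning. Per the submitters' processing notes, Trimmomatic 0.39 and DESeq2 were used, with no role given. For the aligner, assembler, abundance estimator and genome build, names are not stated in the sources. Deposited files give no counts, so depth and counting intervals are unknown, and 0 further columns of sample values were in the table.

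Of 245239 transcripts, 173317 placed on 1 set were summed per locus and set; 2174 placed on both sets were left out of the copies, and with unplaced transcripts held 5.10% to 6.05% of the signal of member loci. Locus sums, copies and the log2 ratio were tested on log2(signal + 1) with limma 3.58.1 in R 4.3.3, keeping features at 1 or more in at least 3 libraries, without a replicate block, with Benjamini-Hochberg adjusted p under 0.05 over all features. The limma code was tested on simulated data whose spread was taken without control replicate 3, so that test does not describe the main fit. Tables and plots used Python 3.11.15, pandas 2.3.3, numpy 2.4.6 and matplotlib 3.10.9. Alternatives were a pseudocount of 0.1, no filter, a filter on all 6 libraries, a replicate block and each library left out; for the members, other thresholds, transcript summaries and placements.

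Same-numbered libraries had correlated deviations of 0.28, 0.27 and 0.04, and the other pairs had -0.33 to 0.05. Each freezing library correlated best with the control of its own number, but control replicate 3 correlated best with freezing replicate 2. These values do not settle whether the numbers pair libraries, and the main fit used no block. Loci named are those with the highest set 2 signal, the steepest ratios, called changes, values at the threshold, the lowest ratios in control replicate 3, the smallest p for the ratio and the first of the longest runs, with exceptions said in the text. The members and these rules were chosen with earlier results of these data known.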

Additional observations from a re-analysis of the deposited data

How the results depend on the processing

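The number of members depended on how a copy was summarised. It was 733 with both copies at 1 or more in all 6 libraries, 2680 with no filter, 509 at 4-fold and 2227 at 1.5-fold. With the highest transcript of each set it was 890, of which 717 were among the 1439; with the mean per transcript it was 835, of which 356 were shared; and with transcripts of the highest placement score only it was 587, of which 478 were shared, but only 4119 loci were then measured and the share of members, 14.3%, was near the 14.1% of the main rule. Of the members, 142 had the same number of transcripts on each set, an alternative chosen after seeing the data. It was within 1.5 times with all 6 libraries in the rule (1202), with control replicate 3 not counted in the filter (1390, added after seeing the data) and, with 1 of the 5 libraries left out, 1485 to 1543. Calls after freezing for the locus sum, 10 with all libraries, were 3 with no filter, and 0 to 36 with 1 library left out, the most without control replicate 3. For set 2 copies, 2 with all libraries, they were 0 with a pseudocount of 0.1, with no filter and with the filter on all 6 libraries (limma, 161, 159 and 81 at an unadjusted p under 0.05), and 0 to 16 with 1 library left out. For set 1 copies, 1 with all libraries, the calls were 0 with the filter on all 6 libraries (99 unadjusted, 13.5%, against 12.1% of all) and 0 to 15 with 1 library left out. For the ratio they were 0 to 2 with 1 library left out. With a replicate block, limma called 0 locus sums, 0 set 2 copies, 0 set 1 copies and 0 ratios of members. In the same order, members at an unadjusted p under 0.05 were 278 (19.3%, against 17.4% of all), 174 (12.1%, against 12.4%), 180 (12.5%, against 11.4%) and 34 (2.36%, against 2.40%). Each freezing library and control replicates 1 and 2 correlated best with their own number, and control replicate 3 did not. Whether the numbers pair libraries was therefore not settled. If they do, the main fit left the pairing out. Each of the 10 called loci kept its direction in every alternative; the cause of the lost calls was not tested. Values without counts limit what can be said of low set 1 copies.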
